A study of Saccharomyces cerevisiae with 22 samples.

Results

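Proteases of the yeast vacuole and the small proteins that inhibit them were followed through heat shock and cold shock. There were 7 of them among the 5311 genes named on the arrays, chosen by gene symbol: 4 proteases (PEP4, PRB1, PRC1 and CPS1) and 3 inhibitors (PAI3, PBI2 and TFS1). Each was represented by 1 probe, printed as 2 spots per array.

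The vacuole is the degradative compartment of the yeast cell, comparable to the lysosome of animal cells. Its proteases are made as inactive precursors that pass through the secretory pathway and are cut to their active forms on arrival, in a cascade started by proteinase A, the product of PEP4. The known inhibitors are small proteins without a signal sequence that reside mainly in the cytosol, and each pairs with 1 protease: PAI3 with proteinase A, PBI2 with proteinase B (PRB1) and TFS1 with carboxypeptidase Y (PRC1). CPS1, carboxypeptidase S, has no partner among these inhibitors.

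Wild-type BY4742, a haploid laboratory strain of mating type alpha, was used throughout, in synthetic complete medium with 2% glucose. For heat shock, cells grown at 30 °C were spun down and taken up in medium at 37 °C, and were collected after 5, 15, 30, 45 and 60 min. For cold shock, cells grown at 37 °C were spun down and taken up in medium at 30 °C, and were collected at 0, 5, 15, 30, 45 and 60 min. Each of the 11 conditions had 2 dual-colour arrays, called a (sample labelled with Cy3) and b (sample labelled with Cy5), and the other channel always held a common reference of RNA from 1 culture of untreated BY4742. Values are log2 ratios of sample over reference, so that 1 unit is a doubling and 0 is the level in the reference. No heat shock sample at time 0 was analysed here, so the reference served as the baseline of the heat series, and pelleting, fresh medium and the separate growth of the reference cannot be told apart from temperature. Comparisons with time 0 of the cold series, the 37 °C culture sampled before the downshift, carry the same limit for pelleting and fresh medium. It is not settled whether the 2 arrays of a condition are separate cultures or a dye exchange of the same RNA, and p-values measure only the spread between such arrays, which may be technical.

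Each array held 15552 spots, with median intensities of 209.85 to 526.7 in Cy5 and 195 to 394 in Cy3 over local backgrounds of 41.7 to 51.6. Between 91.8% and 97.6% of gene spots lay above background. Precision is limited by having 2 arrays per condition. The strain label was checked against its marker genes. The alpha-specific genes MF(ALPHA)1, MF(ALPHA)2, STE3 and SAG1 gave 31.7 to 248 times the local background, whereas LEU2 and URA3, deleted in BY4742, gave 1.18 and 1.16 times, and LYS2, also deleted, gave 2.39 times. Between conditions, arrays of the same dye orientation had a lowest correlation of -0.37 for array a and -0.41 for array b over all probes. These pairs include heat shock with cold shock, so that a negative value does not test the orientation. The direction of each ratio was taken from the dye labels of the samples, and arrays a and b of the same condition correlated at 0.939 to 0.991.

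Transcripts of most of these genes were higher within minutes of heat shock. A gene was called when its adjusted p was below 0.05 and its change exceeded 1.7-fold. At 15 min 6 of the 7 genes were called higher, against a background of 8.92% of the 5326 probes tested, and none was called lower (background 9.35%). Their median log2 ratio was 1.81, with a median of 0.00 over all probes. TFS1 led with a 30.2-fold rise, PRB1 and PBI2 each rose about 4-fold (4.02 and 3.97), and CPS1 was the 1 gene not called, at 1.31-fold. At 5 min 5 genes were called higher (background 6.85%), at 30 min 6 (7.7%), at 45 min 6 (4.13%) and at 60 min 5 (3.74%).

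**Figure D1:**
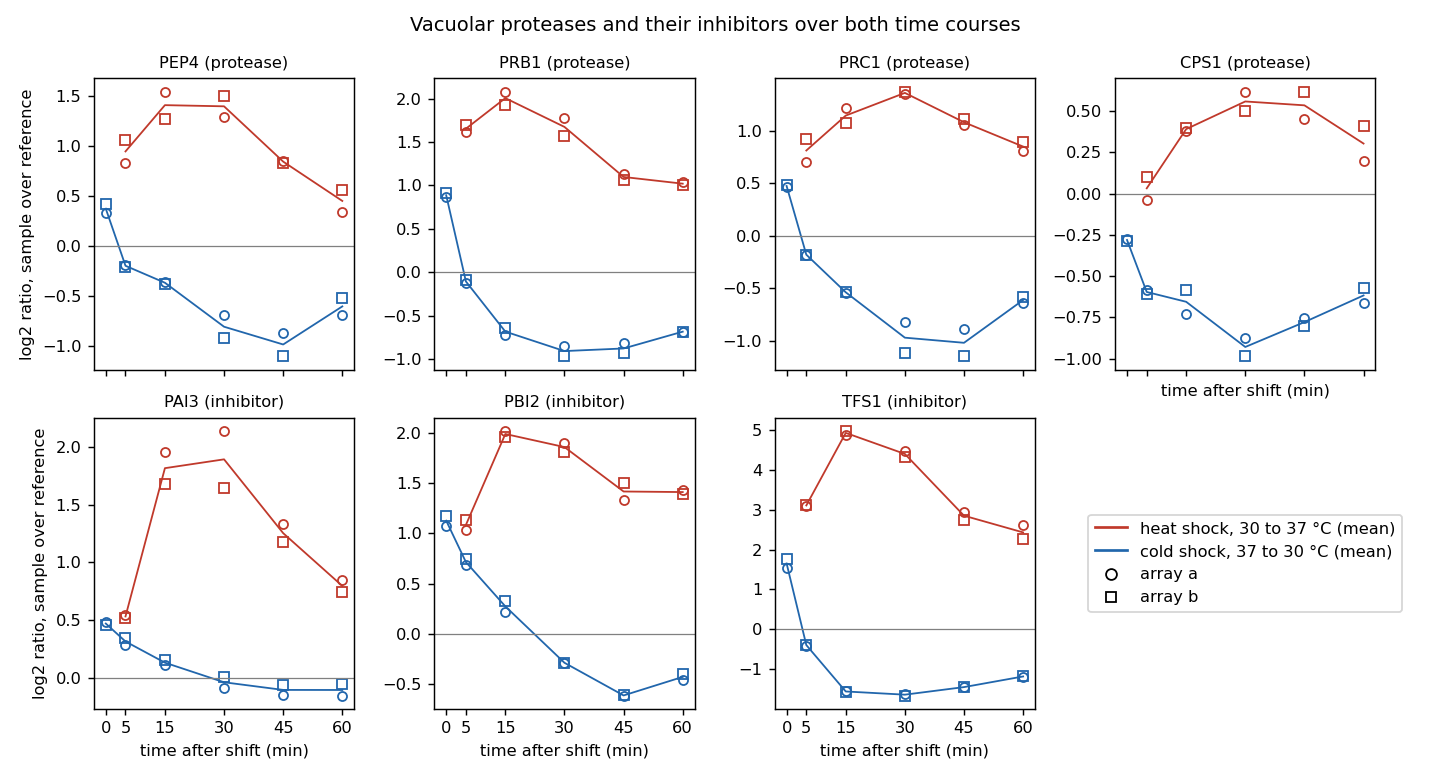
Log2 ratio of sample over common reference (vertical axis, scaled separately in each panel) against minutes after the shift for each gene in heat shock (red) and cold shock (blue). Circles are array a, squares array b and lines the mean of both; all heat values of TFS1 lie above 2, and its cold values from 15 min lie below -1.

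Among the proteases, PEP4, whose product is the aspartyl protease that activates the other precursors, stood at 0.83 and 1.06 (arrays a and b) at 5 min of heat shock, 1.54 and 1.27 at 15 min, 1.29 and 1.5 at 30 min, 0.85 and 0.83 at 45 min, and 0.34 and 0.56 at 60 min. It was highest at 15 and 30 min, where the arrays overlapped, and at 60 min both arrays lay below those of every earlier heat sample. PEP4 rose 2.65-fold at 15 min (log2 1.41, standard error 0.080, limma adjusted p = 1.07e-10), and was no longer called at 60 min (1.37-fold). The 45 min call was lost when ratios were scaled on the external control spots (0.73) or left without an intensity curve (0.58).

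PRB1 encodes a subtilisin-type serine protease. Its log2 ratios were 1.61 and 1.7 at 5 min, 2.08 and 1.93 at 15 min, 1.78 and 1.57 at 30 min, 1.13 and 1.07 at 45 min, and 1.04 and 1.00 at 60 min. The gene was thus already high in the first sample on both arrays, peaked at 15 min, and stayed above the reference in all 10 heat shock arrays. The rise was 3.15-fold at 5 min (standard error 0.045 on the log2 scale, adjusted p = 1.43e-14) and 4.02-fold at 15 min (adjusted p = 1.02e-15). It was still 2.03-fold at 60 min.

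PRC1, the gene of the serine carboxypeptidase CPY that is widely used to follow vacuolar sorting, gave 0.70 and 0.92 at 5 min, 1.22 and 1.07 at 15 min, 1.35 and 1.37 at 30 min, 1.05 and 1.11 at 45 min, and 0.81 and 0.89 at 60 min. Its course was flatter than that of the other proteases that rose, with the highest values on both arrays at 30 min. At that time the rise was 2.57-fold (log2 1.36, standard error 0.066, adjusted p = 1.74e-11). The 5 min call (1.76-fold) rested on array b of that time, without which the log2 ratio was 0.68 and the gene was not called. Left without an intensity curve, the ratios lost the calls at 5 min (0.70), 45 min (0.67) and 60 min (0.43).

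CPS1, which encodes a membrane-anchored metallo-carboxypeptidase delivered to the vacuole through multivesicular bodies, moved least. Its ratios were -0.04 and 0.10 at 5 min, 0.38 and 0.40 at 15 min, 0.62 and 0.50 at 30 min, 0.45 and 0.62 at 45 min, and 0.20 and 0.41 at 60 min. All values from 15 min on were positive and under 1.7-fold. The largest mean, 1.47-fold at 30 min, passed the p threshold (standard error 0.051, adjusted p = 4.73e-08) but not the fold threshold.

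Of the inhibitors, TFS1 covered the widest range. Its product belongs to the phosphatidylethanolamine-binding protein family and, besides carboxypeptidase Y, inhibits the Ras GTPase-activating protein Ira2. TFS1 gave log2 ratios of 3.09 and 3.11 at 5 min, 4.86 and 4.97 at 15 min, 4.47 and 4.31 at 30 min, 2.95 and 2.75 at 45 min, and 2.6 and 2.25 at 60 min. Over these times the 2 arrays of a condition never overlapped those of another. The 15 min value of 4.92 (standard error 0.066, adjusted p = 9.38e-18) was the largest of any gene in the group, and at 60 min TFS1 was still 5.38-fold above the reference. Scaled on the external control spots, the 15 min value was smaller, at 4.02, and still the largest of the group.

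PBI2, the proteinase B inhibitor, whose product also acts in vacuole fusion together with thioredoxin, stood at 1.03 and 1.14 at 5 min, 2.02 and 1.96 at 15 min, 1.90 and 1.81 at 30 min, 1.34 and 1.5 at 45 min, and 1.43 and 1.39 at 60 min. After the peak at 15 min it came down by 45 min and then held its level, the 45 and 60 min arrays overlapping. It rose 3.97-fold at 15 min (standard error 0.039 on the log2 scale, adjusted p = 2.25e-16) and remained 2.66-fold up at 60 min.

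PAI3 encodes the inhibitor of proteinase A, a short protein that is unfolded on its own and becomes helical in the active site of its target. Its values were 0.54 and 0.52 at 5 min, 1.95 and 1.68 at 15 min, 2.14 and 1.64 at 30 min, 1.33 and 1.17 at 45 min, and 0.85 and 0.74 at 60 min. Here the first sample was low on both arrays and the values at 15 and 30 min were high. PAI3 was called higher at 15 min (log2 1.81, standard error 0.078, adjusted p = 3.03e-12) and not at 5 min. Because its reference intensity lay at the level of genes that this strain lacks or should not express, these ratios are lower limits and no estimates of the fold change. At 60 min PAI3 lay just past the fold threshold (0.80) and fell under it with normexp background correction (0.75).

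The intensities behind these ratios differed widely in how far they lay above background. At 15 min of heat shock TFS1 gave 14556 and 15454 in the sample channel of arrays a and b, against 850.1 and 662.1 in the reference. Its highest intensity in any sample was 16896, under the saturation limit of 32768. PAI3 gave 297 and 256 against 72.7 and 66.8 in the reference, where the local background was 49.2 and 45.4. The PAI3 reference level had a median of 68.5 over the 22 arrays. It lay in the range of 52.8 to 132 given by the medians of 9 genes that this strain lacks or should not express. STE2 (132) and LYS2 (115) set the upper end of this range and MFA1 (84.1) came next, while MFA2, URA3 and LEU2 were the dimmest. The log2 changes of PAI3 depended on how the background was treated: with background removed by normexp without offset, an alternative chosen after the data were seen, the 15 min value was 3.02 in place of 1.81, and the 5 min value became 1.2 and was called. The PAI3 sample intensities at 15, 30 and 45 min of heat shock, 214 to 413, lay above the range of those 9 genes. Those at 5 min (108 and 139) and at 60 min (125 and 148) of heat shock lay around its upper end. So did those at 37 °C before the downshift (133 and 116), and all of these exceeded the median of MFA1. All 7 genes exceeded the local background on all 22 arrays, but so did a-specific genes such as MFA1 and STE2, so that this criterion does not show PAI3 to be expressed.

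**Figure D2:**
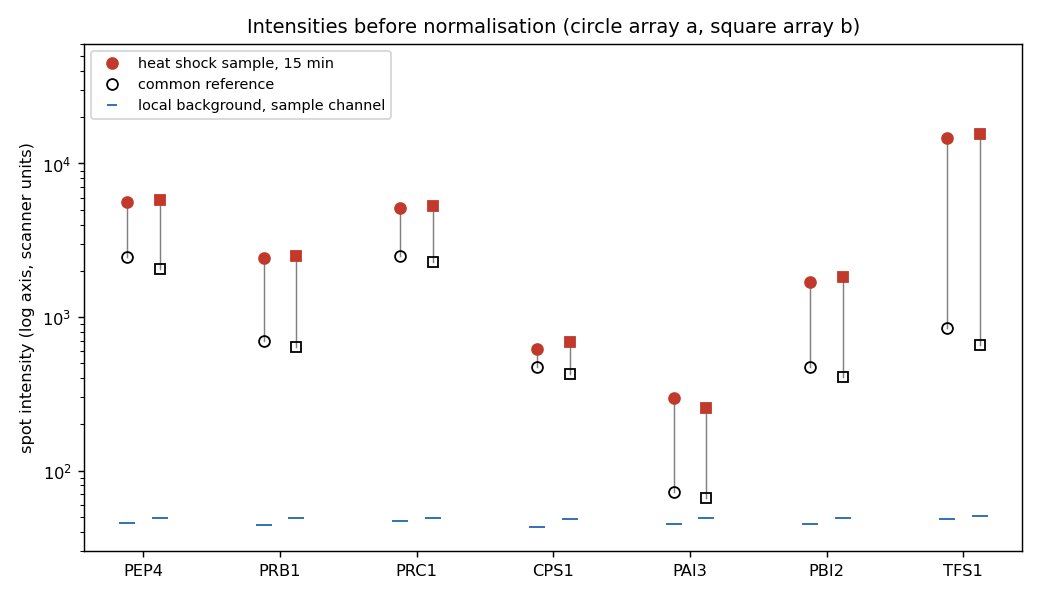
Spot intensity before normalisation (log axis, scanner units) for each gene at 15 min of heat shock, sample channel filled and reference channel open, circles for array a and squares for array b, with the local background of the sample channel as blue dashes. TFS1 reaches 14556 and 15454, while the PAI3 reference, at 72.7 and 66.8, lies close to the background.

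The rises of 4 genes had shrunk by more than 1.7-fold by the end of the hour. Between 15 and 60 min of heat shock TFS1 fell by 2.49 on the log2 scale (standard error 0.093, adjusted p = 4.98e-12), PAI3 by 1.02, PRB1 by 0.99 and PEP4 by 0.96. These 4 of 7 genes were called lower, against a background of 5.09%. The log2 differences of PBI2 (-0.58, limma adjusted p = 1.56e-07) and PRC1 (-0.29, adjusted p = 0.0106) passed the p threshold but not the fold threshold. That of CPS1 (-0.09, adjusted p = 0.299) passed neither. Scaled on the external control spots, the differences of PRB1 (-0.52) and PEP4 (-0.43) were no longer called. That scaling moved the median of all probes to 0.27, and relative to it they were -0.78 and -0.70. TFS1 was still called with a smaller fall of -1.50, or -1.77 relative to that median.

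Cells grown at 37 °C, sampled before the downshift, also carried more of some of these transcripts than the reference. TFS1 gave 1.54 and 1.76, PBI2 1.08 and 1.18, and PRB1 0.86 and 0.91 on arrays a and b. These 3 genes were called higher (3.14-fold, 2.18-fold and 1.85-fold; background 2.22%), and PRB1 lost its call with external control scaling (0.75). PRC1 (0.46 and 0.48), PAI3 (0.49 and 0.46) and PEP4 (0.33 and 0.42) lay above 0 on both arrays without reaching 1.7-fold. CPS1 differed in sign, with -0.27 and -0.29. It was 1.21-fold lower than in the reference (adjusted p = 0.00017), short of the fold threshold. By adjusted p alone all 7 genes passed, as did 68.7% of all probes.

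Set against this 37 °C culture, the heat-shocked cells exceeded the level of prolonged growth at 37 °C for a time. At 15 min of heat shock 5 of the 7 genes were called higher than in the 37 °C culture (background 7.64%): TFS1 by 3.27 on the log2 scale, PAI3 by 1.34, PRB1 by 1.12, PEP4 by 1.04 and PBI2 by 0.86. The number called was 2 at 5 min (PRB1 and TFS1; background 5.82%), 6 at 30 min (all but PBI2; 5.82%) and 3 at 45 min (CPS1, PAI3 and TFS1; 2.03%). At 60 min TFS1 alone was called, by 0.78 (standard error 0.093, adjusted p = 1.01e-05; background 1.37%). The other differences at 60 min ran from 0.08 for PEP4 to 0.58 for CPS1. Several of these calls were borderline, lying just past the fold threshold of 0.766 on the log2 scale. They were those of TFS1 at 60 min (0.777), PAI3 at 45 min (0.781), and PRB1 at 5 min (0.768) and 30 min (0.788). The 5 min value of PBI2 was -0.04 against the 37 °C culture, so that its early rise over the reference was no larger than the difference between that culture and the reference.

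After the downshift from 37 to 30 °C most of these transcripts fell. Relative to time 0, 2 of 7 genes were called lower at 5 min (PRB1 and TFS1; background 3.21%), 4 at 15 min (with PBI2 and PRC1; 5.5%), and 5 at 30 min (with PEP4; 4.43%), at 45 min (4.17%) and at 60 min (3.51%). None was called higher at any time. By adjusted p alone 6 genes passed at 5 min and 7 at 15 min, against 63% and 66.8% of all probes. The median change of the 7 at 30 min was -1.41, that over all probes -0.01.

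TFS1 fell fastest and farthest. Its ratios to the reference went from 1.54 and 1.76 at time 0 to -0.40 and -0.38 at 5 min, -1.54 and -1.57 at 15 min, -1.61 and -1.65 at 30 min, -1.44 and -1.45 at 45 min, and -1.19 and -1.16 at 60 min. Both arrays of every later time lay below time 0, and from 15 min also at least 1 log2 unit below the reference. The fall from time 0 was 4.12-fold at 5 min and 9.72-fold at 30 min (log2 -3.28, standard error 0.093, adjusted p = 2.96e-13).

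PRB1 went from 0.86 and 0.91 to -0.12 and -0.09 at 5 min, -0.73 and -0.65 at 15 min, -0.85 and -0.97 at 30 min, -0.82 and -0.94 at 45 min, and -0.69 and -0.68 at 60 min. It was down on both arrays from the first sample on, 1.99-fold at 5 min (adjusted p = 3.3e-09) and 3.48-fold at 30 min. PRC1 fell later, with -0.18 and -0.18 at 5 min, -0.54 and -0.53 at 15 min, -0.82 and -1.12 at 30 min, -0.89 and -1.15 at 45 min, and -0.64 and -0.58 at 60 min. Its lowest values, at 30 and 45 min, were 2.72-fold and 2.81-fold below time 0, and by 60 min both arrays had come back up.

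PEP4 followed with -0.19 and -0.21 at 5 min, -0.36 and -0.38 at 15 min, -0.69 and -0.92 at 30 min, -0.87 and -1.10 at 45 min, and -0.69 and -0.52 at 60 min. The fall reached 2.56-fold at 45 min (log2 -1.36, standard error 0.11, adjusted p = 7.65e-08). At 15 min PEP4 missed the call at -0.74, but passed it without array a of time 0 (-0.78), with a single loess curve (-0.80) and in the authors' own ratios (-0.89). At 60 min the calls of PEP4 and PRC1 were lost with external control scaling (-0.63 and -0.69).

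PBI2 came down more slowly, from 1.08 and 1.18 at time 0 through 0.68 and 0.74 at 5 min, 0.22 and 0.33 at 15 min and -0.29 and -0.29 at 30 min to -0.61 and -0.61 at 45 min, and stood at -0.46 and -0.40 at 60 min. At 5 and 15 min it was still above the reference on both arrays, when PRB1 was already below it. The fall from time 0 was 1.33-fold at 5 min, not called, and 3.34-fold at 45 min (adjusted p = 1.45e-12). At 15 min (-0.85) its call was lost with external control scaling (-0.63), a single loess curve (-0.68) or no curve (-0.69).

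PAI3 and CPS1 were called at no time of the cold series against time 0. PAI3 ran from 0.49 and 0.46 at time 0 to -0.15 and -0.05 at 60 min. From 5 min on its sample intensities, 57.2 to 94.4, lay like those of the reference within the range of genes that this strain lacks or should not express. These ratios therefore could not go far below 0 and do not measure how far PAI3 fell. With normexp without offset PAI3 was called at 30, 45 and 60 min (-1.2, -1.35 and -1.35). CPS1 lay below the reference on all 12 arrays of the series, from -0.27 at time 0 to its lowest, -0.87 and -0.99, at 30 min. The latter was -0.65 from time 0, or 1.57-fold.

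Measured against the reference instead of time 0, the cold series went below the level of untreated cells. At 5 min none of the 7 was called lower than the reference (background 3.19%) and at 15 min TFS1 alone (4.45%). At 30 min and at 45 min 5 genes were called lower, all 4 proteases and TFS1 (background 3.38% and 2.82%). The 45 min call of CPS1 was borderline. Its log2 ratio of -0.779 lay just past the fold threshold of 0.766, and the authors' own ratios were -0.724 and -0.768 on arrays a and b. At 30 min the log2 ratio was -0.81 for PEP4, -0.91 for PRB1, -0.97 for PRC1, -0.93 for CPS1 and -1.63 for TFS1. PBI2 (-0.29) was not called, and PAI3, in both channels at the level of genes that this strain lacks or should not express, could not have been. At 60 min only TFS1 was called, at 2.26-fold lower (background 1.82%).

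With heat shock and cold shock compared directly at 15 min, all 7 genes were called higher in heat shock, against a background of 15.2%. The log2 difference was 6.47 for TFS1, or 88.5-fold (standard error 0.093, adjusted p = 3.37e-17), and 2.69 for PRB1. PEP4 (1.78), PBI2 (1.71), and PRC1 (1.68) lay close together, PAI3 gave 1.68 as a lower limit, and CPS1 had the smallest difference at 1.05. Scaled on the external control spots, TFS1 gave a smaller difference of 5.54 and PRB1 of 2.40.

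Each inhibitor was next set against the protease it inhibits by taking the difference of their log2 ratios on each array. This gives how unequally the pair changed from the reference, not how much of either transcript was present, and is given without a test. TFS1 exceeded PRC1 in heat shock by 2.39 and 2.19 (arrays a and b) at 5 min, 3.65 and 3.90 at 15 min, 3.12 and 2.94 at 30 min, 1.89 and 1.64 at 45 min, and 1.80 and 1.36 at 60 min. In cold shock the difference went from 1.08 and 1.27 at time 0 to -0.22 and -0.20 at 5 min and -0.99 and -1.03 at 15 min, and remained negative on both arrays to 60 min. The pair thus opened in favour of the inhibitor at 37 °C and of the protease after the downshift, and these signs were the same in all 8 scalings of the arrays (the one used and 7 alternatives).

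For PBI2 and PRB1 the difference was largest in the early samples, and opposite in sign in heat and cold shock. At 5 min of heat shock the difference was -0.58 and -0.56, at 15 min -0.06 and 0.02, at 30 min 0.13 and 0.24, at 45 min 0.21 and 0.43, and at 60 min 0.40 and 0.38. After the downshift it went from 0.21 and 0.27 to 0.81 and 0.84 at 5 min and 0.94 and 0.97 at 15 min, then to 0.56 and 0.68 at 30 min, 0.21 and 0.33 at 45 min and 0.23 and 0.28 at 60 min. At 5 min the inhibitor had thus risen less than its protease in heat shock, and stood above it in cold shock, on both arrays and with the same sign in 8 of 8 scalings. At 15 min of heat shock the difference was within the spread of the arrays, and its sign was positive in 4 scalings and negative in 4.

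For PAI3 and PEP4 the difference was -0.29 and -0.54 at 5 min of heat shock, 0.41 and 0.40 at 15 min, 0.84 and 0.14 at 30 min, 0.48 and 0.34 at 45 min, and 0.51 and 0.18 at 60 min. In cold shock it was 0.16 and 0.04 at time 0 and then 0.47 to 1.05 on the 10 later arrays. From 15 min of heat shock PAI3 lay above PEP4 on each array, and the size of the difference depended on the background treatment (0.41 at 15 min, 1.57 with normexp without offset). In cold shock nothing can be read from this pair. PAI3 was at the level of genes that this strain lacks or should not express, and its ratio could not follow that of PEP4 down. The negative value at 5 min of heat shock turned positive (0.28) with normexp without offset, and the time 0 value turned negative with a single loess curve (-0.03) and with no curve (-0.01).

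**Figure D3:**
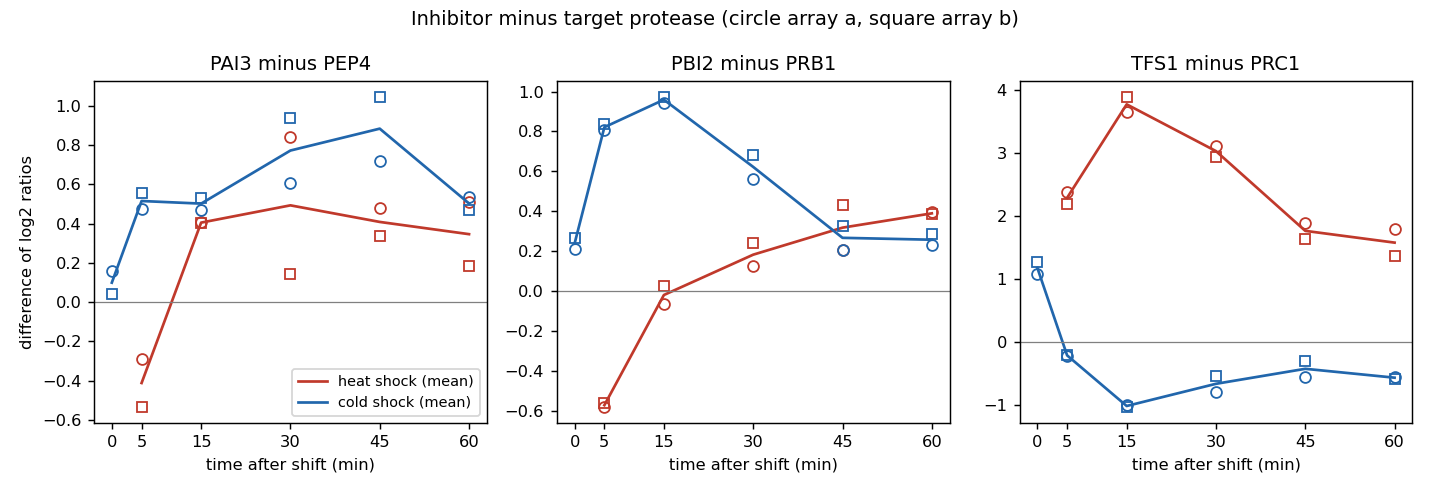
Difference between the log2 ratios of an inhibitor and its target protease (vertical axis, scaled separately in each panel) against minutes after the shift, in heat shock (red) and cold shock (blue), with circles for array a, squares for array b and lines for their mean. TFS1 minus PRC1 peaks at 3.65 and 3.90 at 15 min of heat shock and is negative after the downshift, whereas PBI2 minus PRB1 starts at -0.58 and -0.56 in heat shock and reaches 0.94 and 0.97 in cold shock.

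Ordered by level over the 11 conditions, every gene had heat shock samples at the top and cold shock samples from 30 min or later at the bottom. For TFS1 the order was 15, 30, 5, 45 and 60 min of heat shock, then the 37 °C culture, then 5, 60, 45, 15 and 30 min of cold shock, and none of the 10 neighbouring pairs overlapped between arrays. For PBI2 2 of 10 neighbouring pairs overlapped, namely 45 with 60 min of heat shock and the 37 °C culture with 5 min of heat shock. PRB1, PRC1 and PAI3 each had 3 overlapping neighbours, and PEP4 and CPS1 4. For PEP4 these were 15 with 30 min, 5 with 45 min, and 60 min of heat shock with the 37 °C culture, at the top of the order, and 30 with 45 min of cold shock at the bottom. PRB1, PRC1 and PEP4 were lowest at 30 and 45 min of cold shock, which overlapped, and CPS1 at 30 min. The lowest PAI3 values, at 30, 45 and 60 min of cold shock, could not be ordered.

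Other genes of the vacuole were counted for comparison. Of 11 further vacuolar hydrolases 9 were measured, and 5 of them were called higher at 15 min of heat shock (8.92% of all probes), with a list median of 1.19. APE1, the aminopeptidase that reaches the vacuole directly from the cytosol, rose 5.08-fold, and RNY1, a secreted and vacuolar ribonuclease, 4.73-fold. The others called, named after their values were seen, were AMS1 (alpha-mannosidase, log2 2.06), ATH1 (acid trehalase, 2.05) and APE3 (aminopeptidase Y, 1.19). In cold shock at 15 min APE1 (-2.13), ATH1 (-1.32) and, named after its values were seen, RNY1 (-1.14) were called lower (5.5% of all probes), and the list median was -0.57.

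The sorting machinery that delivers the proteases was called no more often than all probes. Of 27 measured vacuolar protein sorting genes (29 listed), 2 were called higher at 15 min of heat shock, a share near the 8.92% of all probes, the SNARE genes VTI1 (log2 0.85) and PEP12 (0.80), and the list median was 0.32. None of the 27 was called at 15 min of cold shock (8.17% of all probes called either way, list median -0.15). Of these calls 1 was lost with a single loess curve and with external control scaling. Of 14 measured genes of the vacuolar ATPase, the proton pump that acidifies the vacuole, VMA16 alone was called, lower by log2 -1.05 at 15 min of heat shock, a share near the 9.35% of all probes called lower, and the list median was -0.20. The VMA16 call was lost with a single loess curve, without a curve and with normexp without offset, and with external control scaling 3 genes of the list were called lower, as were 14.1% of all probes.

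The last list held 10 relatives of the proteases that work outside the vacuolar lumen. Among them was BAR1, an a-specific gene that this strain should not express. Its median signal was 1.75 times the local background, so that its ratios say little. At 15 min of heat shock YPS6, a cell-surface yapsin of the aspartyl protease family, rose 2.85-fold and YSP3, a subtilisin-like protease related to PRB1, 1.81-fold, while the yapsin gene MKC7 fell 2.56-fold. Over all probes 18.3% were called either way. The list median was 0.07, and none was called at 15 min of cold shock (8.17% of all probes called either way, list median -0.02). With normexp without offset 5 genes of this list were called, 2 higher and 3 lower, and 24% of all probes.

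**Figure D4:**
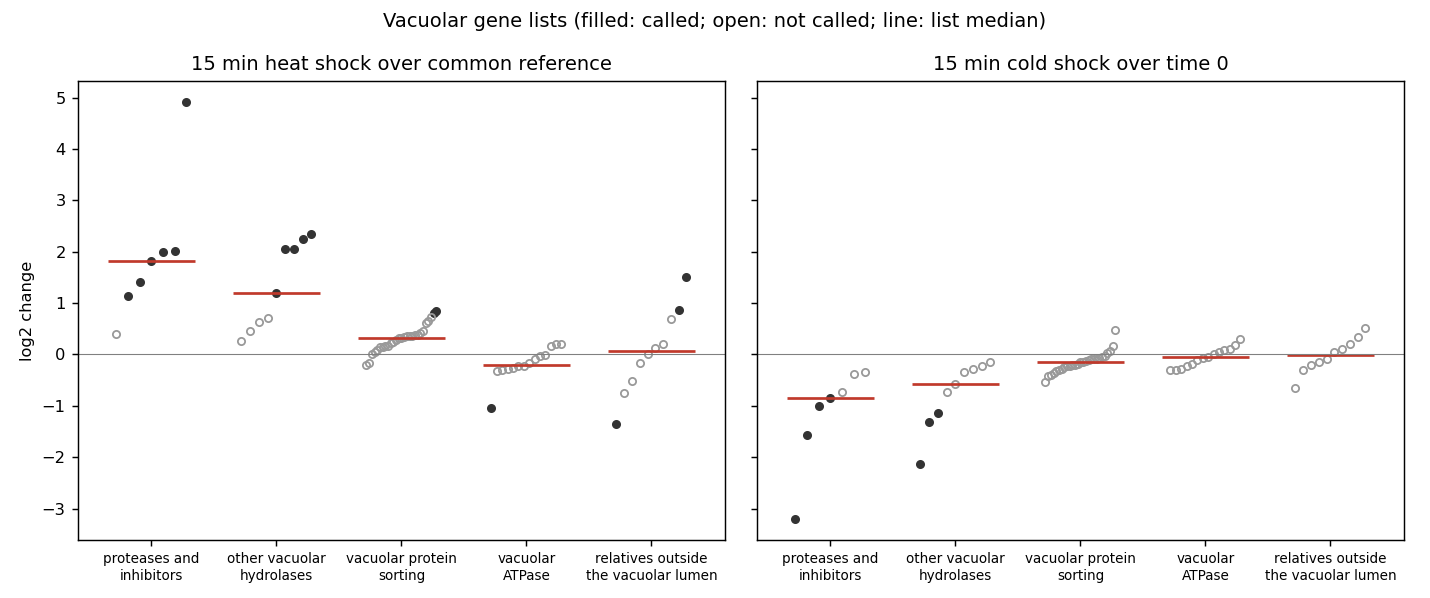
Log2 change (vertical axis) of each measured gene in 5 lists at 15 min of heat shock over the common reference (left) and at 15 min of cold shock over time 0 (right), filled where called, open where not, with the list median as a red line. The medians of the proteases and inhibitors are 1.81 and -0.85, those of vacuolar protein sorting 0.32 and -0.15.

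Finally, the genes whose means over the 11 conditions ran most like each of the 7 were found by Pearson correlation, given as a description because all points share the reference and the arrays. High values were common: for PEP4, TFS1 ranked 18 with r of 0.980, and CPS1 ranked 429 with r of 0.931. For TFS1 they were STF1 (a stabiliser of the mitochondrial ATPase inhibitor, r = 0.998), APE1 (0.997) and YDL124W (an aldo-keto reductase, 0.996). For PRB1 they were HXK1 (hexokinase), COX15 (haem A synthesis) and NTH1 (neutral trehalase), with r of 0.994, 0.993 and 0.993. For PBI2 the 3 were URA7 (CTP synthase), SSA1 (a cytosolic chaperone) and FUN14, at 0.990, 0.989 and 0.984. PAI3 ran closest to GND2 (phosphogluconate dehydrogenase), TSA2 (a peroxiredoxin) and CRG1, at 0.993, 0.992 and 0.988. Its cold shock values lie at the level of genes that this strain lacks or should not express. For PEP4 COX5B (cytochrome c oxidase), AHP1 (a peroxiredoxin) and CDC48 (an ATPase that extracts ubiquitylated proteins) reached 0.990, 0.989 and 0.988. PRC1 had POA1, CPR6 (a co-chaperone) and UGA1 (GABA transaminase) at 0.991, 0.990 and 0.990. CPS1 had SNO4, YJR142W and DAK1 (dihydroxyacetone kinase) at 0.988, 0.986 and 0.985. APE1 was the 1 vacuolar hydrolase among these 21 genes, and the size of the change differed within such sets: at 15 min of heat shock STF1 stood at 2.32 and APE1 at 2.34, TFS1 at 4.92.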

How the data were processed

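Intensities of both dyes and their local backgrounds were deposited by the authors as scanner output, not yet normalised. The authors also deposited log2 ratios, normalised by their own pipeline (limma 2.12.0 in the submitters' notes). Of these 22 columns 3 had the opposite sign to the scanner values and were turned before use as an alternative. A table of the authors' own comparisons was not used.

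Here the log2 ratio of sample to reference was formed from intensities without background subtraction and normalised by print-tip loess (span 0.4, 48 blocks), fitted without control spots and spots above 32768. Both spots of a probe were then averaged. All 22 arrays entered 1 limma fit (version 3.58.1, R 4.3.3) in which every condition had its own coefficient and the dye, which is also the array letter, was a covariate. Benjamini-Hochberg adjustment covered the 5326 probes with a symbol (58 symbols were updated through RefSeq names), and 1062 probes without a symbol were left out. The procedure was tested on simulated data. The ratios are relative within each array: a shift shared by all genes, or less RNA per cell, is not seen.

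Named were all 7 genes, the 3 genes most correlated with each, and from each list the 2 called genes that rose most and the 2 that fell most at 15 min of either shock, with exceptions marked. The members and lists were chosen with earlier results of these data known. Alternatives were another background correction, other or no intensity curves, external control spots, the deposited ratios, dim spots left out, both spots kept, another baseline, other thresholds, no dye term and each array left out. Promoter motifs were not searched and no sequences are shown, since no sequence tables were used here. ATG42, PFF1, VTH1, VTH2 and VMA9 were not measured.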

Additional observations from a re-analysis of the deposited data

Results flagged for a closer look

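The log2 ratios of 4 genes differed between 2 times of the same heat shock, by limma's test of the 60 min minus the 15 min log2 ratio: TFS1 by -2.49, PAI3 by -1.02, PRB1 by -0.99 and PEP4 by -0.96. In each of the 4, both arrays at 60 min lay below both arrays at 15 min. For PAI3 the 60 min intensities (125 and 148) lay around the upper end of the range of genes that this strain lacks or should not express (up to 132).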

How the results depend on the processing

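With 37 °C cells as the baseline of heat shock, the numbers of genes called were 2 at 5 min, 3 at 45 min and 1 at 60 min, PBI2 turned to -0.042 at 5 min, and PBI2 minus PRB1 to -0.056 at 30 min. With the reference as the baseline of cold shock they were 0 at 5 min, 1 at 15 min and 1 at 60 min, and PBI2 turned to 0.27 at 15 min. A 2-fold threshold left 3 genes at 5 min and 3 at 60 min of heat shock (4.88% and 2.37% of all probes), 2 for 60 against 15 min (2.89%), and 1 at 5 min of cold shock (1.75%). By adjusted p alone 7 genes passed in the 37 °C culture, 6 at 5 min and 7 at 15 min of cold shock. Scaling on external control spots gave 2 genes lower for 60 against 15 min (2.23% of all probes, whose median it moved by 0.27) and 3 at 60 min of cold shock (3.12%). It also moved the median of all probes to 0.20 at 45 and at 60 min of heat shock. Averaged over all arrays, 2 of the 7 genes, PEP4 and PRC1, were brighter than the brightest of the 14 control probes, beyond which that scale was extended. TFS1 was dimmer on that average (log2 intensity 10.0 against 10.8). At 15 min of heat shock its sample channel reached 14556 and 15454, so that its value there may also lie beyond the controls.

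At 15 min of heat shock, PAI3 minus PEP4 was 0.31 over the 37 °C baseline, 0.14 in the deposited ratios, 0.83 with external controls, 0.13 with global loess, 0.65 with no curve, 0.35 with normexp and 1.57 with normexp without offset, the last chosen after seeing the data. In the same settings except normexp with its offset, PBI2 minus PRB1 was -0.26, -0.13, 0.13, 0.047, 0.11 and 0.13, and TFS1 minus PRC1 was 2.6, 3.37, 3.21, 3.19, 3.20 and 3.60. PAI3 minus PEP4 turned to 0.28 at 5 min of heat shock with normexp without offset, and at time 0 to -0.033 with global loess and -0.013 with no curve. The cause of these differences was not tested.

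With each array left out in turn, the number called at 5 min of heat shock ranged from 4 to 5 and at 15 min of cold shock from 4 to 5, and at 15 min of heat shock the pair differences ranged from 0.40 to 0.41 for PAI3 minus PEP4, from -0.06 to 0.02 for PBI2 minus PRB1 and from 3.65 to 3.90 for TFS1 minus PRC1. Without the dye term, which is the replicate block, 6 genes were called at 15 min of heat shock, and no call on any of the 7 genes or lists changed. Deviations of same-lettered arrays correlated above 0.1 in 51 of 55 pairs of conditions (-0.13 to 0.81, median 0.36) and not in the other 4. The letter is also the dye orientation, and whether it marks anything else the arrays share was not tested. Intensity near background limits PAI3 most.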
